A study of Homo sapiens with 9 samples.

Results

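The genes described here encode the machinery that copies DNA in S phase, 49 genes in all, measured in A375 cells treated with TP-472. They were chosen by name as the listed genes of origin licensing, the replicative helicase, the DNA polymerases, the sliding clamp and its loader, nucleotide synthesis and chromatin and histone supply. All 49 were among the 26475 gene symbols of the deposited count table, and all 49 were among the 16417 genes that passed the filter on low counts. A375 is an established human melanoma cell line with an activating BRAF mutation, and TP-472 is a small molecule that inhibits the bromodomain proteins BRD9 and BRD7. The study profiled RNA from A375 cells treated for 24 h with DMSO as the control, with 5 µM TP-472 or with 10 µM TP-472, in 3 libraries per group, and asked which genes the inhibitor regulates in melanoma cells. The labels name no further drug or genetic change in any group, and the data speak for 1 cell line at 1 time point. The series text calls the libraries biological replicates without saying how the cultures were separated, so the p-values measure only the spread between these libraries.

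Chromosomes are copied once in each cell cycle. In G1 the origin recognition complex, CDC6 and CDT1 load the MCM2-7 helicase onto origins as an inactive ring, which is called licensing, and in S phase the kinase CDC7 with DBF4, together with MCM10, CDC45 and the GINS complex, turns that ring into the moving helicase. Primase and polymerase alpha start each strand, polymerases delta and epsilon extend it on the PCNA clamp, RPA covers the exposed single strand, and FEN1 and LIG1 join the Okazaki fragments. Many of these genes are transcribed under E2F factors as cells pass from G1 into S phase, so their mRNA is high in dividing cells such as melanoma lines and low in arrested ones.

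The libraries held 42483091 to 51298130 expected counts, and the members held between 108 and 13894.8 expected counts in a library. Levels are given as CPM, the count of a gene scaled to the TMM-corrected size of its library. The library of 10 µM replicate 1 stood apart. Together, the length and the GC content of transcripts explained 10.3% of how its log2 levels deviated from each gene's mean in its group. The share was 4.48% and 5.16% in the other libraries at 10 µM and at most 0.459% elsewhere. Such deviations cancel within a group, so the shares of its libraries depend on each other. Some values of single genes below are also given without 10 µM replicate 1, a choice made after it was seen to stand apart. The fit without it called 25.8% of all genes lower at 10 µM, against 18.0% with all libraries. Ribosomal RNA genes held 8.20% to 19.9% of each library. The melanoma marker SOX10 stood at 426, 404 and 419.7 CPM in DMSO and VIM at 3698, 3662 and 3800.2 CPM, whereas the pigment cell genes PMEL and MLANA stood at 1.48 and 0.173 CPM on average, TYR was listed at 0 in each of the 9 libraries and DCT at no more than 0.0192 CPM. Of the markers of other cell types, CD3E was at 0 in every library, and PTPRC and EPCAM stayed under 0.538 CPM. CD68, a lysosomal gene used as a macrophage marker, stood at 53.3 to 58.7 CPM in DMSO and 87.1 to 129.5 CPM at 10 µM (edgeR adjusted p = 0.000549) and was the one tested gene of its list of 3. The summed levels of the 3 endothelial markers ran from 2.25 to 3.70 CPM in the DMSO libraries, from 1.84 to 2.42 CPM at 5 µM and from 2.79 to 3.48 CPM at 10 µM. Those of the 3 fibroblast markers ran from 5.82 to 6.76 CPM in the DMSO libraries and from 3.08 to 4.67 CPM at 10 µM, those of the 4 epithelial markers from 7.28 to 8.55 and from 6.52 to 10.9 CPM, and those of the 8 melanocytic and neural crest markers from 530.1 to 551 and from 444 to 498 CPM. Of these 8, MITF, S100B and NGFR averaged 31.9, 7.09 and 85.5 CPM in DMSO. NGFR was the 1 gene of that list called at either dose. Its log2 fold changes were -1.04 at 5 µM and -0.81 at 10 µM (edgeR adjusted p = 0.000524 and 0.000524). The mesenchymal-like melanoma markers VIM and AXL together ran from 4186 to 4329 CPM in the DMSO libraries, from 2880 to 2972 CPM at 5 µM and from 2493 to 2961 CPM at 10 µM. VIM fell by 0.57 and 0.73 on the log2 scale at the lower and the higher dose (edgeR adjusted p = 0.00250 and 0.000142) and AXL by 0.31 and 0.25 (edgeR adjusted p = 0.0296 and 0.0255). The part of these shifts in the results below was not tested.

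Most replication genes were downregulated by 10 µM TP-472. The summed level of the 49 genes was 3654 to 3717 CPM in the DMSO libraries, 2984 to 3008 CPM at 5 µM and 2480 to 2706 CPM at 10 µM, so the 3 groups did not overlap. At 10 µM, 36 of the 49 were downregulated against DMSO at an edgeR adjusted p under 0.05, 1 (PCNA) was upregulated and 12 did not pass the test. Over all genes tested, 18.0% were called lower and 16.4% higher in that comparison. The median log2 fold change of the 49 genes was -0.65, against 0.01 over all genes tested, and 26 of the 36 fell by a fold of at least 1.5. Of all 16417 genes tested, 1730 were called lower at 10 µM with that fold. In cells growing as a bulk culture, fewer cells in S phase and less of each mRNA per cell cannot be told apart.

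At 5 µM, 23 of the 49 were downregulated against DMSO and none was called higher. By the edgeR test 29 had an unadjusted p under 0.05 with a lower level and 1 with a higher level, and DESeq2 called 27 lower and 1 higher. Of all genes, the edgeR test called 5.81% lower and 4.40% higher at its adjusted threshold, and DESeq2 8.91% and 7.39%. The median log2 fold change of the members was -0.29, against 0.01 over all genes tested, and 6 of the 23 fell by a fold of at least 1.5. Of all 16417 genes tested, 447 were called lower at 5 µM with that fold. The spread that this test uses is shared with the 10 µM libraries. Without 10 µM replicate 1 the count of members called lower at 5 µM was 37, and the share of all genes called lower was 17.6%. Without DMSO replicate 1, 2 or 3 it was 6, 5 and 8 members, and 2.43% to 2.69% of all genes. Without 5 µM replicate 1, 2 or 3 it was 9, 8 and 9 members, and 2.86% to 2.99% of all genes. The order of the counts at the 2 doses turned in fits of only the 2 groups compared, which called 40 members lower at 5 µM and 32 at 10 µM, with 20.7% and 14.4% of all genes called lower.

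Between the doses, 19 of the 49 were lower at 10 µM than at 5 µM and none was called higher. By the edgeR test 25 had an unadjusted p under 0.05 with a lower level at 10 µM and 1 with a higher level, and DESeq2 called 21 lower and 0 higher. The edgeR test called 5.53% of all genes lower and 2.87% higher, and DESeq2 8.42% and 6.58%. The median log2 difference was -0.24 for the members and 0.00 over all genes. A total of 471 genes were called higher and 908 lower, and after the trend of each library with length and GC was removed these counts were 971 and 1168. Without 10 µM replicate 1, 33 members and 15.4% of all genes were called lower at 10 µM than at 5 µM. Without 5 µM replicate 1, 2 or 3 it was 10, 8 and 9 members, and 2.31% to 2.39% of all genes. Since both comparisons with DMSO use the same 3 control libraries, the values of the 2 doses are set side by side below and no correlation between them was computed.

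**Figure D1:**
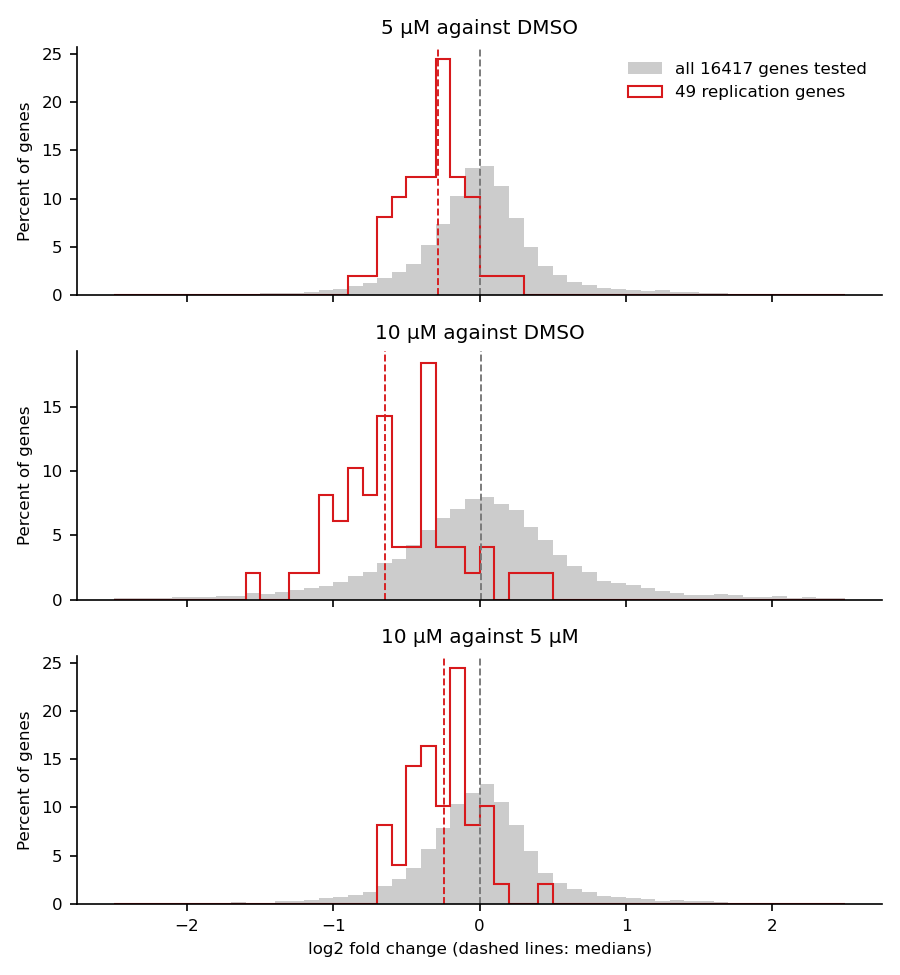
Percent of genes (y axis) in bins of the log2 fold change (x axis) for the 49 replication genes (red outline) and all 16417 genes tested (grey), for each dose against DMSO and for the higher dose against the lower; the axis stops at 2.5 on either side, which leaves out 126, 347 and 138 genes. The dashed medians of the replication genes are -0.29, -0.65 and -0.24, to the left of the medians of all genes near 0.

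The single libraries show the same order without a model. In 39 of the 49 genes (79.6%) all 3 libraries at 5 µM were below all 3 DMSO libraries, which was the case for 25.0% of all genes tested. At 10 µM this held for 40 genes (81.6%), against 26.0% of all genes. In 24 genes (49.0%) every library at 10 µM was below every library at 5 µM, and these in turn were below every DMSO library, against 9.24% of all genes. The members varied little between libraries of a group in DMSO and at 5 µM, where the median coefficient of variation was 2.90% and 4.47%. At 10 µM it was 13.8%, with the highest value (32.5%) in POLA1.

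**Figure D2:**
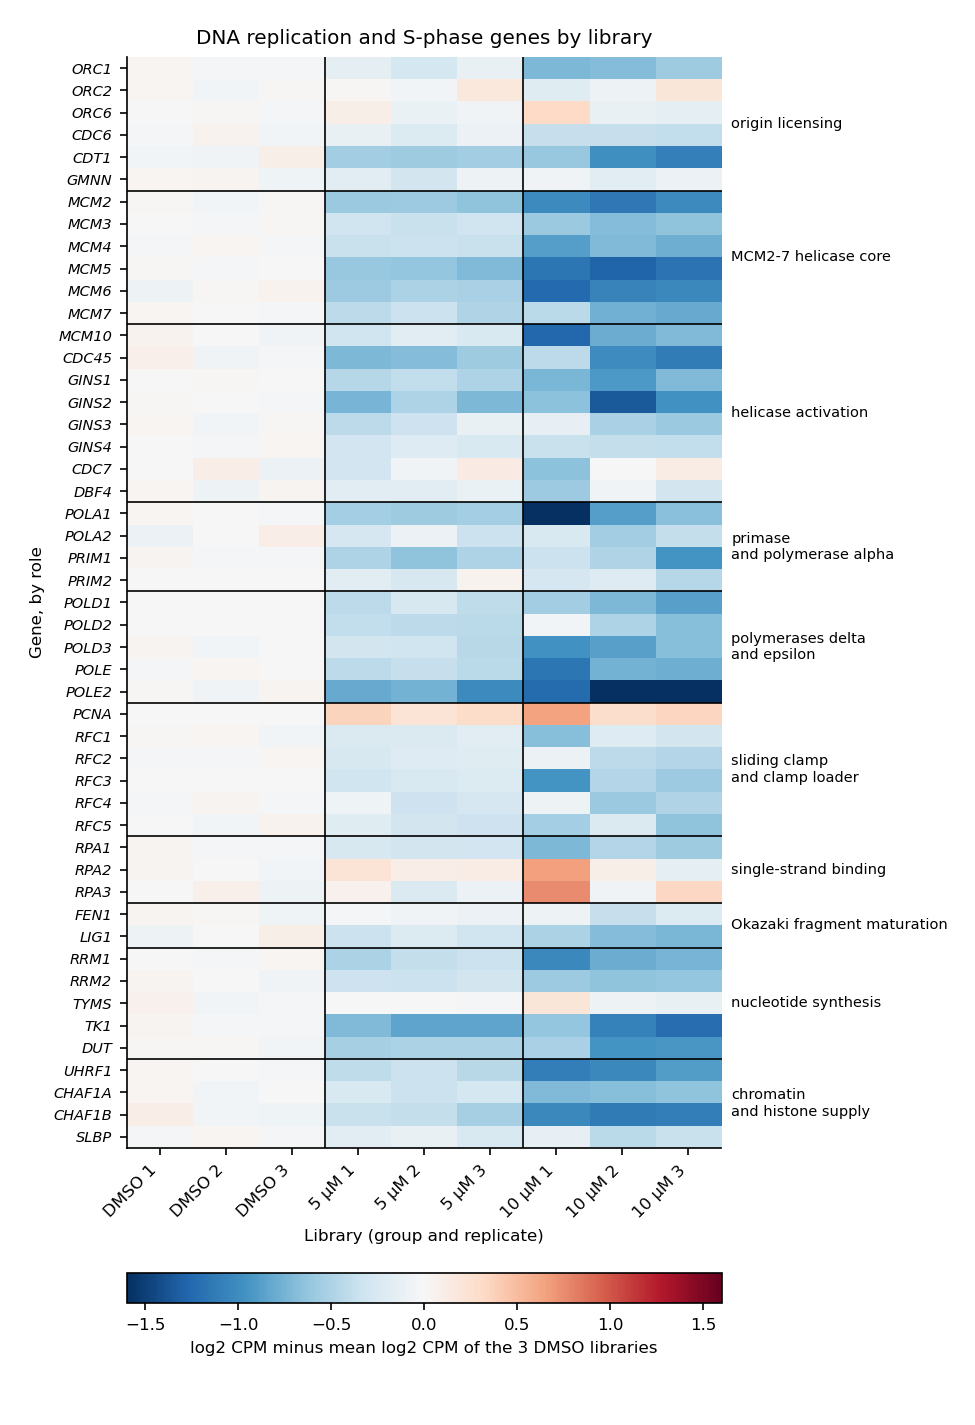
Heat map of the 49 replication genes (rows, by role) in the 9 libraries (columns), coloured by log2 CPM minus the mean log2 CPM of the 3 DMSO libraries, with blue for lower and red for higher. The columns at 5 µM are pale blue and those at 10 µM darker blue in most rows, while PCNA is red in all 6 treated libraries and RPA2 and RPA3 are deepest red in 10 µM replicate 1.

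Sequence before the starts of several members is shown because E2F factors are known to bind near many replication genes, and no binding was measured here. RefSeq promoters on GRCh38.p14 were matched for 43 of the 49 genes, and the 250 bases before each start were searched on both strands for 4 E2F-type motifs, TTTGGCGC, TTTCCCGC, TTTCGCGC and TTTGCCGC. The sequence TTTGGCGCGAAA holds the first motif and, on the other strand and overlapping it, the third. At least 1 of the motifs was present in 13 of the 43 members (30.2%), in 4.15% of the promoters of the genes tested and in 2.79% of all 27305 RefSeq promoters in the table. The commonest among the members was TTTCCCGC, in 9 of 43 (20.9%) against 1.42% of all promoters, while TTTGCCGC was in none of the members' windows. A match describes the letters only. The start is that of the RefSeq record, and by the exons of GENCODE release 29 the windows of MCM6 and POLA1 hold no exonic base of their gene. The MCM6 window (chr2:135876444-135876693, minus strand) held the 12-letter form at 2 places, beginning 152 and 90 bases before the start, and the POLA1 window (chrX:24693668-24693917, plus strand) held 1 match, 137 bases before the start. Both are shown whole, from 5′ to 3′ on the strand of the gene, with the matches in capitals.
MCM6: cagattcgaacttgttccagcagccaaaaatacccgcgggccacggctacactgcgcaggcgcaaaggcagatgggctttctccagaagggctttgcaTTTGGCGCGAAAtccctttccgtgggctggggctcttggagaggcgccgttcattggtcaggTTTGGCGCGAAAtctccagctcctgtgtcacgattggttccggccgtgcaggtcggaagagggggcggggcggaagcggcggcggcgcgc
POLA1: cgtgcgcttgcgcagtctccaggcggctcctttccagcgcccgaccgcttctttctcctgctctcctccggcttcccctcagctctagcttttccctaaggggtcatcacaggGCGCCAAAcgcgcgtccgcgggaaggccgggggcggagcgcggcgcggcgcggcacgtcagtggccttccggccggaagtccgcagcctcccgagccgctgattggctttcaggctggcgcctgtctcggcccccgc

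For the next 4 members with a match, in the order of their change at 10 µM, 30 bases around the match are shown in the same way. They are UHRF1 (chr19:4909471-4909500, plus strand), GINS2 (chr16:85688967-85688996, minus strand), POLE (chr12:132687343-132687372, minus strand) and CDT1 (chr16:88803743-88803772, plus strand). All 250 bases searched for CDT1 are exonic sequence of CDT1 itself in GENCODE release 29, as are 71 for UHRF1, 45 for GINS2 and 23 for POLE, so these are not purely upstream sequence. The same holds for other windows counted with a motif. All 250 bases are exonic for MCM7 and LIG1, and 200, 139 and 100 for POLA2, MCM3 and RFC3.
UHRF1: caaatgccgagttttcGCGGGAAAaaaatc
GINS2: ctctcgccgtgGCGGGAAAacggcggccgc
POLE: ctgggtgggagcGCGCCAAAtttctcccct
CDT1: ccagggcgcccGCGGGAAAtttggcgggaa
Of the 32 matched members downregulated at 10 µM, 11 (34.4%) held a motif, and of the 11 that were not called lower, 2 (18.2%) did. Those 2 were PCNA (chr20:5126663-5126692, minus strand) and TYMS (chr18:657603-657632, plus strand), which were chosen for display after their values were seen and are shown for contrast, with 4 and 49 exonic bases of their own gene among the 250.
PCNA: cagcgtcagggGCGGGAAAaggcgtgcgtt
TYMS: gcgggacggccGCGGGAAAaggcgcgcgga
The windows of UHRF1, GINS2, CDT1, PCNA and TYMS carry the same capitals, GCGGGAAA, which is TTTCCCGC read from the other strand. At 10 µM the first 3 of these genes were called lower, PCNA was called higher and TYMS was not called. MCM7, RFC3, MCM3 and LIG1, the other members with TTTCCCGC, were all called lower.

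Of the 6 genes of origin licensing, 1 (16.7%) was downregulated at 5 µM and 3 (50%) at 10 µM. The shares of all genes called lower were 5.81% and 18.0%. CDT1, which brings the MCM ring to the origin, stood at 64.1, 63.6 and 70.6 CPM in DMSO, 44.7, 44.4 and 44.8 CPM at 5 µM and 43.5, 33.3 and 30.95 CPM at 10 µM. Its log2 fold change was -0.57 ± 0.12 (SE) at 5 µM (edgeR adjusted p = 0.0150) and -0.88 ± 0.12 at 10 µM (edgeR adjusted p = 0.000414). All 6 treated libraries were below the DMSO libraries, and replicate 1 was the highest of the 10 µM libraries. ORC1, the largest subunit of the origin recognition complex, stood at 27.7, 26.7 and 26.8 CPM in DMSO, 24.6, 22.4 and 24.9 CPM at 5 µM and 16.4, 16.8 and 18.2 CPM at 10 µM. It fell at 10 µM (log2 change -0.66 ± 0.08, edgeR adjusted p = 0.000257), whereas the change at 5 µM was -0.18 ± 0.08 (edgeR adjusted p = 0.226). CDC6, the ATPase that loads the helicase with CDT1, had 61.8 ± 2.32 CPM (SD, n = 3) with DMSO and fell to 47.6 ± 0.583 CPM at 10 µM (edgeR adjusted p = 0.00268). The other licensing genes did not pass the test at either dose. The recognition complex subunits ORC2 and ORC6 had log2 fold changes of -0.02 and 0.03 at 10 µM, and GMNN, which encodes geminin, the inhibitor of CDT1, had -0.11 (edgeR adjusted p = 0.374). For GMNN the value after removal of the length and GC trend was -0.32 (adjusted p = 0.00495). ORC6 had its highest level in 10 µM replicate 1 (28.8, 21.3 and 20.8 CPM in replicates 1 to 3), and without that library its change was -0.14.

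All 6 genes of the MCM2-7 ring were downregulated at both doses, against 5.81% of all genes at 5 µM and 18.0% at 10 µM. Their median log2 fold changes were -0.47 at 5 µM and -0.93 at 10 µM. Of the 6, 5 (83.3%) were lower at 10 µM than at 5 µM, against 5.53% of all genes. The summed level of the 6 was 946 to 953 CPM in the DMSO libraries, 682 to 709 CPM at 5 µM and 521 to 559 CPM at 10 µM. MCM2 (chr3:127598223-127622436 in GENCODE release 29) stood at 185, 176 and 184 CPM in DMSO, 121, 121 and 116 CPM at 5 µM and 89.9, 81.98 and 89.4 CPM at 10 µM. MCM5 (chr22:35400063-35425430) stood at 74.5, 71.8 and 73.7 CPM in DMSO, 48.2, 47.6 and 44.9 CPM at 5 µM and 33.03, 30.3 and 32.3 CPM at 10 µM. MCM6 (chr2:135839626-135876426) stood at 69.6, 74.3 and 76.3 CPM in DMSO, 49.2, 51.6 and 51.2 CPM at 5 µM and 31.1, 35.01 and 35.99 CPM at 10 µM. In these 3 genes the groups were fully separated, and the level at 10 µM was under 50% of that in DMSO. The log2 fold changes of MCM5 were -0.65 ± 0.07 at 5 µM (edgeR adjusted p = 0.000512) and -1.20 ± 0.07 at 10 µM (edgeR adjusted p = 2.09e-06), the largest of the ring. Those of MCM6 were -0.54 ± 0.08 and -1.11 ± 0.08 (edgeR adjusted p = 0.00265 and 7.87e-06), and those of MCM2 were -0.61 ± 0.07 and -1.06 ± 0.07 (edgeR adjusted p = 0.000542 and 3.42e-06). In MCM2, 23.6% of the exonic bases overlap exons on the opposite strand, of TPRA1 among others.

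The other members of the ring had smaller log2 fold changes. MCM3 stood at 114, 113 and 116 CPM in DMSO, 92.1, 89.2 and 92.05 CPM at 5 µM and 75.9, 70.5 and 72.99 CPM at 10 µM. MCM4 stood at 231, 238 and 231 CPM in DMSO, 182, 184 and 181 CPM at 5 µM and 126, 143 and 136 CPM at 10 µM. Both separated the 3 groups fully, with log2 fold changes at 10 µM of -0.65 ± 0.06 for MCM3 and -0.79 ± 0.07 for MCM4 (edgeR adjusted p = 6.12e-05 and 1.99e-05). MCM7 stood at 279.6, 272 and 269 CPM in DMSO, 204, 215 and 197 CPM at 5 µM and 203, 161 and 156 CPM at 10 µM. Its 10 µM replicate 1 lay within the range of the 5 µM libraries, and its expected count was fractional in 8 of 9 libraries. The fall of MCM7 against DMSO was called at both doses (-0.41 ± 0.10 and -0.66 ± 0.10, edgeR adjusted p = 0.0280 and 0.000806) but its difference between the doses was not (-0.24 ± 0.10, edgeR adjusted p = 0.164). Without that library the difference between the doses was -0.38 (adjusted p = 1.09e-05).

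**Figure D3:**
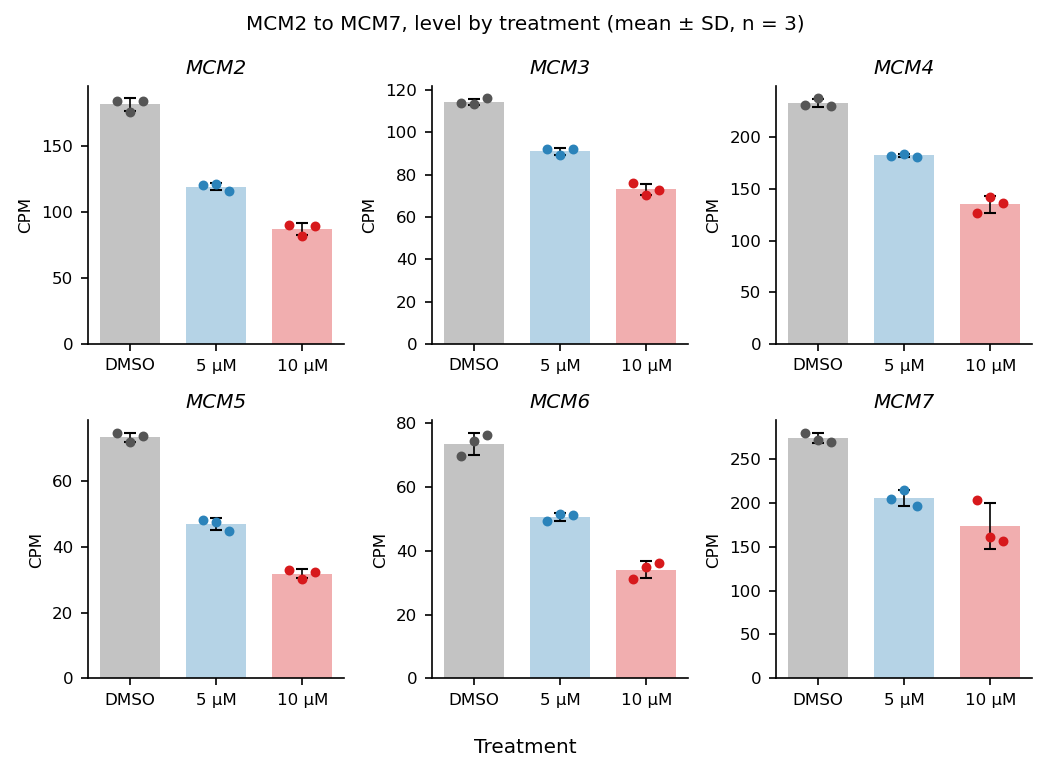
CPM of MCM2, MCM3, MCM4, MCM5, MCM6 and MCM7 (y axes, each from 0) in DMSO, 5 µM and 10 µM; points are libraries, bars are means and error bars are SD over 3 libraries. In each panel the 5 µM and 10 µM libraries lie below all DMSO libraries, and in MCM7 the replicate 1 point at 10 µM (203 CPM) reaches the range of the 5 µM points.

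Among the 8 genes that turn the loaded ring into an active helicase, 3 (37.5%) were downregulated at 5 µM and 6 (75%) at 10 µM. The shares of all genes called lower were 5.81% and 18.0%. CDC45, which rides with the ring at the fork, stood at 21.97, 20.1 and 20.5 CPM in DMSO, 12.7, 12.9 and 14.0002 CPM at 5 µM and 15.5, 10.4 and 9.56 CPM at 10 µM. GINS1 stood at 35.7, 36.2 and 35.5 CPM in DMSO, 26.1, 27.2 and 25.4 CPM at 5 µM and 21.6, 18.98 and 21.9 CPM at 10 µM. GINS2 stood at 27.2, 27.2 and 26.5 CPM in DMSO, 16.1, 19.1 and 16.5 CPM at 5 µM and 17.2, 10.6 and 13.8 CPM at 10 µM. In all 3 genes every treated library was below every DMSO library, and in CDC45 replicate 1 was the highest of the 10 µM libraries, above the 5 µM libraries. GINS2 changed by -0.65 ± 0.15 at 5 µM and -0.96 ± 0.16 at 10 µM (edgeR adjusted p = 0.00116), and CDC45 by -0.66 ± 0.16 and -0.82 ± 0.16 (edgeR adjusted p = 0.00387). GINS1 changed by -0.45 ± 0.08 and -0.78 ± 0.08 (edgeR adjusted p = 8.36e-05). MCM10, the scaffold that helps to start unwinding, stood at 33.6, 32.3 and 30.9 CPM in DMSO, 25.8, 28.6 and 27.3 CPM at 5 µM and 13.5, 18.6 and 19.7 CPM at 10 µM. It differed at 10 µM (-0.90 ± 0.13, edgeR adjusted p = 0.000637) and between the doses (-0.65 ± 0.13, edgeR adjusted p = 0.0156), with the lowest level in replicate 1. The other GINS subunits also fell at 10 µM, with log2 fold changes of -0.40 for GINS3 and -0.38 for GINS4 (edgeR adjusted p = 0.0446 and 0.00492), and the call of GINS3 was lost in 12 of the 19 alternatives, among them a required fold of 1.5. CDC7 and DBF4, the kinase and its activator, did not pass the test at either dose. CDC7 stood at 13.2 to 15.04 CPM in DMSO and 8.90 to 15.3 CPM at 10 µM, groups that overlapped, and DBF4 had a log2 fold change of -0.30 ± 0.12 at 10 µM (edgeR adjusted p = 0.0797).

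Primase and polymerase alpha had 1 gene (25%) downregulated at 5 µM and 3 (75%) at 10 µM of 4. The shares of all genes called lower were 5.81% and 18.0%. POLA1, the catalytic subunit of polymerase alpha, stood at 61.998, 61.4 and 59.4 CPM in DMSO, 41.8, 41.002 and 41.9 CPM at 5 µM and 19.3, 33.1 and 38.2 CPM at 10 µM. The groups did not overlap, but replicate 1 at 10 µM was far below the others. POLA1 changed by -1.01 ± 0.20 at 10 µM (edgeR adjusted p = 0.00323) and by -0.55 ± 0.19 at 5 µM (edgeR adjusted p = 0.109). Without 10 µM replicate 1 the values were -0.77 (adjusted p = 9.62e-08) and -0.55 (adjusted p = 2.33e-06), so at 5 µM it was called without that library and not with it. PRIM1, the catalytic subunit of primase, ranged over 27.4 to 28.997 CPM in DMSO, over 18.01 to 20.001 CPM at 5 µM and over 14.5 to 22.1 CPM at 10 µM, with log2 fold changes of -0.54 ± 0.14 and -0.57 ± 0.14 (edgeR adjusted p = 0.0367 and 0.0103). POLA2, the accessory subunit of polymerase alpha, fell at 10 µM (log2 change -0.39 ± 0.11, edgeR adjusted p = 0.0180), and 35.1% of its exonic bases overlap another gene model on the same strand. PRIM2, the large primase subunit, had -0.30 ± 0.11 (edgeR adjusted p = 0.0548).

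Of the 5 genes of polymerases delta and epsilon, 4 (80%) were downregulated at both doses, against 5.81% and 18.0% of all genes. The same 4 differed between the doses, where 5.53% of all genes were called lower. POLE2, an accessory subunit of polymerase epsilon (chr14:49643555-49688422), had the largest change of all 49 genes, from the lowest level per kilobase of exonic sequence in DMSO. It stood at 7.75, 7.39 and 7.90 CPM in DMSO, 4.40, 4.55 and 3.78 CPM at 5 µM and 3.26, 2.54 and 2.20 CPM at 10 µM. The 3 groups did not overlap, and the log2 fold changes were -0.85 ± 0.17 at 5 µM (edgeR adjusted p = 0.0123) and -1.52 ± 0.18 at 10 µM (edgeR adjusted p = 0.000148). POLE, the catalytic subunit of polymerase epsilon, stood at 67.95, 70.8 and 69.6 CPM in DMSO, 52.1, 53.9 and 51.6 CPM at 5 µM and 31.2, 40.99 and 40.3 CPM at 10 µM. POLD1, the catalytic subunit of polymerase delta, stood at 95.6, 95.8 and 95.9 CPM in DMSO, 71.4, 79.95 and 72.2 CPM at 5 µM and 65.2, 58.4 and 52.2 CPM at 10 µM. POLD3, an accessory subunit of polymerase delta, stood at 35.2, 33.2 and 34.2 CPM in DMSO, 27.9, 27.5 and 25.2 CPM at 5 µM and 17.5, 18.8 and 21.3 CPM at 10 µM. Each of these 3 genes was ordered from DMSO to 5 µM to 10 µM in every library. At 10 µM the log2 fold changes were -0.89 ± 0.10 for POLE, -0.71 ± 0.09 for POLD1 and -0.83 ± 0.09 for POLD3 (edgeR adjusted p = 0.000157, 0.000297 and 0.00012). After removal of the length and GC trend the difference between the doses was -0.28 for POLE, where it had been -0.49, and -0.23 for POLD1, where it had been -0.35. The calls of POLD1 and POLE2 between the doses were each lost in 13 of the 19 alternatives. POLD2, the second subunit of polymerase delta, was lower in all treated libraries (71.02, 70.2 and 69.4 CPM at 5 µM and 90.8, 66.4 and 58.6 CPM at 10 µM) than in DMSO (93.7, 93.5 and 93.9 CPM) but did not pass the test at 10 µM (-0.38 ± 0.14, edgeR adjusted p = 0.0532). Without replicate 1 its change was -0.59 (adjusted p = 3.44e-07), in a fit that called 25.8% of all genes lower, against 18.0% with it.

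At 10 µM the sliding clamp was upregulated and most of its loader downregulated. PCNA, the ring that tethers polymerases to DNA (chr20:5114953-5126626), was the one member called higher. It stood at 171, 170.2 and 171 CPM in DMSO, 218, 199 and 209.9 CPM at 5 µM and 267, 208 and 217 CPM at 10 µM. All 6 treated libraries were above all DMSO libraries, and replicate 1 was the highest of the 10 µM libraries. The log2 fold change was 0.29 ± 0.10 at 5 µM (edgeR adjusted p = 0.0843) and 0.43 ± 0.10 at 10 µM (edgeR adjusted p = 0.00618). Without 10 µM replicate 1 it was 0.29 at 5 µM (adjusted p = 2.79e-05) and 0.31 at 10 µM (adjusted p = 1.8e-05), and after removal of the length and GC trend 0.22 (adjusted p = 0.0208) and 0.21 (adjusted p = 0.0127). The fold at 10 µM was under 1.5 in each case.

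None of the 5 clamp loader genes was called at 5 µM, and 4 were downregulated at 10 µM. The shares of all genes called lower were 5.81% and 18.0%. RFC3 stood at 51.5, 51.4 and 51.6 CPM in DMSO, 41.3, 43.4 and 44.1 CPM at 5 µM and 26.5, 37.1 and 34.3 CPM at 10 µM. It had the largest change of the loader, -0.66 ± 0.11 at 10 µM (edgeR adjusted p = 0.00173), with replicate 1 the lowest library. RFC1, the large subunit, changed by -0.38 ± 0.11, RFC2 by -0.31 ± 0.10 and RFC5 by -0.47 ± 0.11 (edgeR adjusted p = 0.0266, 0.0361 and 0.00884). RFC1 was lowest in replicate 1 (64.2, 89.6 and 84.5 CPM in replicates 1 to 3), and without it the change was -0.25 (adjusted p = 0.00056). RFC2 went the other way between the libraries (46.3, 36.8 and 35.6 CPM), and its call was lost in 12 of the 19 alternatives, among them upper-quartile scaling (adjusted p = 0.0755). After removal of the length and GC trend the change of RFC2 was -0.47. RFC4 had -0.37 ± 0.13 (edgeR adjusted p = 0.0544), and without replicate 1 -0.54 (adjusted p = 8.76e-05).

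Of the 3 subunits of RPA, the complex that coats single-stranded DNA, 1 (33.3%) was downregulated at each dose. The shares of all genes called lower were 5.81% at 5 µM and 18.0% at 10 µM. RPA1, the large subunit, stood at 179, 171 and 169 CPM in DMSO, 145, 141 and 140.2 CPM at 5 µM and 106, 126 and 116 CPM at 10 µM. Its 3 groups did not overlap, and it fell, with log2 fold changes of -0.29 ± 0.08 at 5 µM and -0.58 ± 0.08 at 10 µM (edgeR adjusted p = 0.0412 and 0.000343). The call of RPA1 at 5 µM was lost in 9 of the 19 alternatives. RPA2 stood at 51.1, 49.6 and 47.9 CPM in DMSO, 57.6, 53.2 and 53.9 CPM at 5 µM and 77.9, 53.04 and 44.99 CPM at 10 µM, and RPA3 at 21.8 to 24.3 CPM in DMSO and 38.96, 22.1 and 28.997 CPM at 10 µM. Neither passed the test. In both genes the highest value at 10 µM was that of replicate 1. The change of RPA2 at 10 µM was 0.24 ± 0.17 (edgeR adjusted p = 0.293) with replicate 1 and -0.02 without it. In RPA3, replicate 3 at 10 µM was also above every DMSO library. The change of RPA3 at 10 µM over all 3 libraries was 0.38 ± 0.18 (edgeR adjusted p = 0.128). Of the genes that finish Okazaki fragments, the DNA ligase LIG1 stood at 37.9, 40.1 and 42.9 CPM in DMSO, 31.6, 34.7 and 32.4 CPM at 5 µM and 28.3, 24.8 and 24.2 CPM at 10 µM. LIG1 was called lower at 10 µM (-0.65 ± 0.09, edgeR adjusted p = 0.000493) and not at 5 µM (-0.29 ± 0.09, edgeR adjusted p = 0.0690), although all treated libraries were below DMSO. The flap endonuclease FEN1 stood at 129.7 to 140.3 CPM in DMSO and 104.8 to 128 CPM at 10 µM (-0.22 ± 0.08, edgeR adjusted p = 0.0678). After removal of the length and GC trend FEN1 changed by -0.30 (adjusted p = 0.00305).

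**Figure D4:**
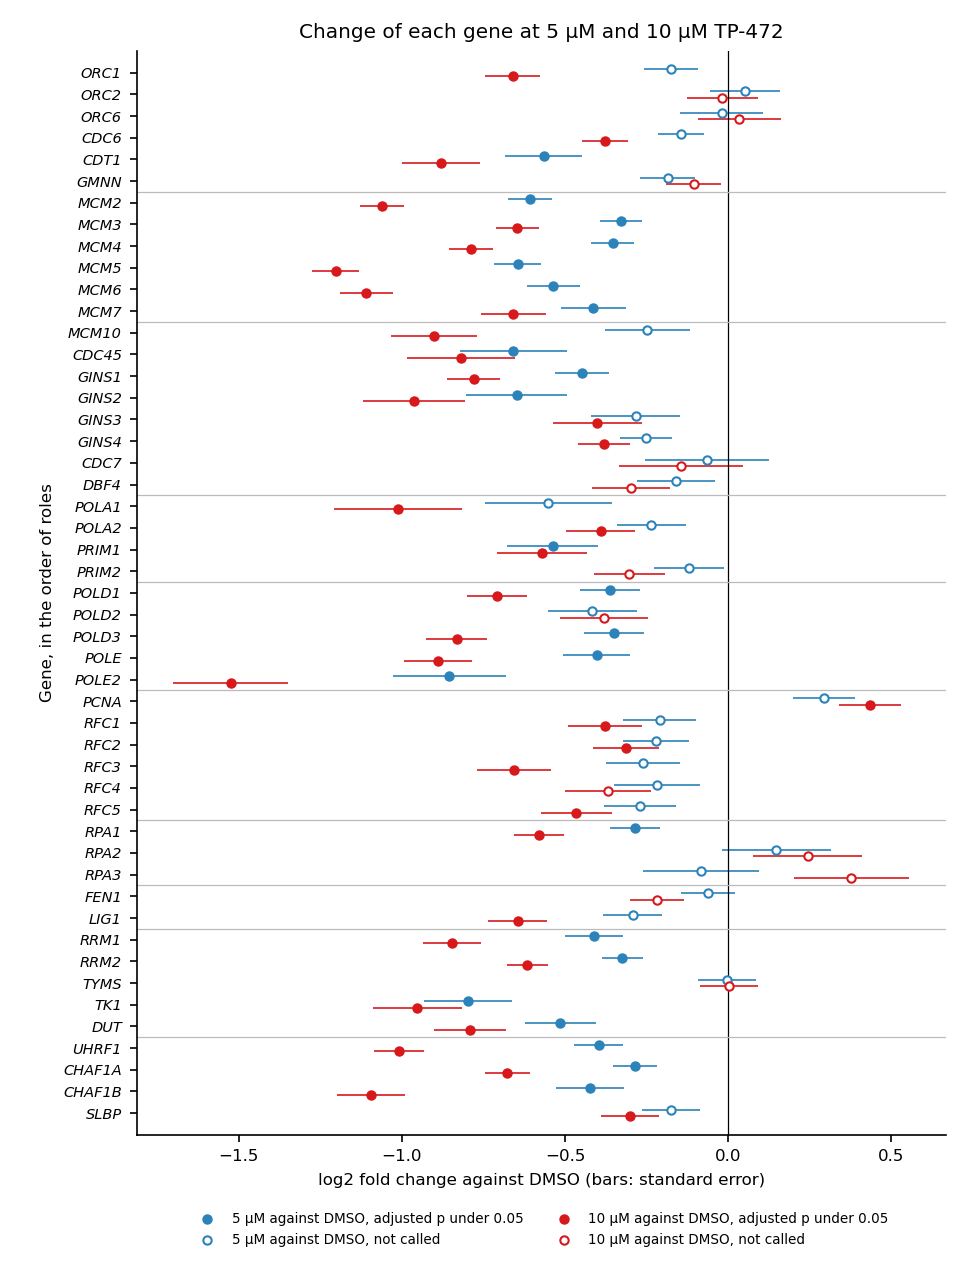
Log2 fold change against DMSO (x axis) of each of the 49 genes (y axis, by role) at 5 µM (blue) and 10 µM (red), with bars of 1 standard error; filled points have an edgeR adjusted p under 0.05. At 10 µM, 36 filled points lie left of 0, from POLE2 at -1.52, and PCNA at 0.43 is the one filled point to the right.

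Of the 5 genes of nucleotide synthesis, 4 (80%) were downregulated at both doses, against 5.81% and 18.0% of all genes. Ribonucleotide reductase makes the deoxyribonucleotides for DNA synthesis from a large subunit, RRM1, and a small subunit, RRM2. RRM1 stood at 113, 112 and 116 CPM in DMSO, 79.96, 86.96 and 89.5 CPM at 5 µM and 55.9, 65.6 and 68.2 CPM at 10 µM. RRM2 stood at 198, 192 and 185 CPM in DMSO, 152, 150.3 and 156 CPM at 5 µM and 128, 122 and 125 CPM at 10 µM. Both were ordered by dose in every library and fell at 10 µM, with log2 fold changes of -0.85 ± 0.09 and -0.62 ± 0.06 (edgeR adjusted p = 7.94e-05 and 7.11e-05). TK1, which salvages thymidine, stood at 102, 96.7 and 98.04 CPM in DMSO, 60.6, 55.3 and 55.1 CPM at 5 µM and 64.3, 46.6 and 42.6 CPM at 10 µM. It fell at 5 µM (log2 change -0.80 ± 0.14, edgeR adjusted p = 0.00544), next to POLE2 the largest change at that dose. At 10 µM its change was -0.95 ± 0.14 (edgeR adjusted p = 0.000555), and 10 µM and 5 µM did not differ past the threshold (-0.16 ± 0.14, edgeR adjusted p = 0.518). Without 10 µM replicate 1 the difference between the doses was -0.35 (adjusted p = 0.000538). DUT, the enzyme that removes dUTP, stood at 122, 122 and 117 CPM in DMSO, 83.4, 84.6 and 84.8 CPM at 5 µM and 83.6, 61.8 and 63.4 CPM at 10 µM. It fell, with log2 fold changes of -0.51 ± 0.11 and -0.79 ± 0.11 (edgeR adjusted p = 0.0160 and 0.000477). In both TK1 and DUT replicate 1 was the highest of the 10 µM libraries.

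TYMS, which makes thymidylate from deoxyuridylate (chr18:657604-673578), was the one gene of nucleotide synthesis called at neither dose. It stood at 161, 149 and 151 CPM in DMSO, 154, 155 and 152 CPM at 5 µM and 176, 145 and 142 CPM at 10 µM. The groups overlapped, and the log2 fold changes were 0.00 ± 0.09 and 0.00 ± 0.09 (edgeR adjusted p = 0.992 and 0.981). Without 10 µM replicate 1 the change at 10 µM was -0.10 (adjusted p = 0.0583), and after removal of the length and GC trend -0.19 (adjusted p = 0.0113). TYMS shares 46.6% of its exonic bases with ENOSF1 and TYMSOS on the opposite strand, and its expected count was fractional in 9 of 9 libraries. The study's methods describe strand-specific libraries, but no source used here states whether reads were assigned by strand, so its level is uncertain.

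Chromatin and histone supply had 3 of 4 genes (75%) downregulated at 5 µM and all 4 at 10 µM. The shares of all genes called lower were 5.81% and 18.0%. UHRF1, which recognises hemimethylated DNA and brings DNMT1 to it, stood at 145, 143 and 140.4 CPM in DMSO, 108, 113 and 105.02 CPM at 5 µM and 66.1, 69.7 and 77.03 CPM at 10 µM. CHAF1A, the large subunit of the histone chaperone CAF-1, stood at 78.7, 74.6 and 77.02 CPM in DMSO, 65.1, 60.6 and 63.4 CPM at 5 µM and 46.98, 47.99 and 49.1 CPM at 10 µM. CHAF1B, another CAF-1 subunit, stood at 15.4, 13.9 and 13.6 CPM in DMSO, 11.1, 10.9 and 9.89 CPM at 5 µM and 6.96, 6.498 and 6.60 CPM at 10 µM. In all 3 genes the groups did not overlap and were ordered by dose. CHAF1B changed by -0.42 ± 0.10 and -1.09 ± 0.11 (edgeR adjusted p = 0.0299 and 4.73e-05), UHRF1 by -0.40 ± 0.08 and -1.01 ± 0.08 (edgeR adjusted p = 0.00920 and 9.48e-06) and CHAF1A by -0.29 ± 0.07 and -0.68 ± 0.07 (edgeR adjusted p = 0.0260 and 6.19e-05). UHRF1 was lower at 10 µM than at 5 µM (-0.61 ± 0.08, edgeR adjusted p = 0.00129), a call kept in all alternatives. SLBP, which binds the stem loop of histone mRNAs, fell at 10 µM (log2 change -0.30 ± 0.09, edgeR adjusted p = 0.0245), from 73.6 to 76.6 CPM to 55.6 to 68.2 CPM. The call of SLBP was lost in 8 of the 19 alternatives, among them upper-quartile scaling (adjusted p = 0.0529), and after removal of the length and GC trend its change was -0.45.

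Per kilobase of exonic sequence, PCNA was the most abundant of the 49 mRNAs in DMSO, at a mean of 116 CPM per kilobase. MCM7 (62.4), TYMS (62.2), FEN1 (54.8) and TK1 (53.2) followed in the same unit, and CHAF1B (2.79) and POLE2 (2.60) were the lowest. The exonic length joins all annotated exons of a gene, for POLE2 2955 bases against 1792 in its longest transcript. Ranks between close genes therefore depend on the length used. At 10 µM PCNA stood at 157 CPM per kilobase and MCM7 at 39.5. Within the MCM2-7 ring, whose proteins form a complex with 1 copy of each, the level per kilobase in DMSO ran from 9.99 for MCM5 to 62.4 for MCM7. Overlap with other gene models makes some levels uncertain, since reads can be shared. It covered 23.6% of the exonic bases of GINS4 and 14.5% of those of DUT on the opposite strand, and 20.2% of those of RRM2 and 16.2% of those of PRIM1 on the same strand.

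A further 60 genes of the same processes were listed by name. Of 27 other origin and fork factors, 3 (11.1%) were downregulated at 5 µM and none was called higher. Of all genes tested, 5.81% were called lower and 4.40% higher at that dose. At 10 µM 15 (55.6%) were downregulated and 3 (11.1%) upregulated, against 18.0% and 16.4% of all genes. The median log2 fold change at 10 µM was -0.50. TOP2A, the topoisomerase that untangles replicated chromosomes and is also high in G2 and mitosis, stood at 501, 518 and 501 CPM in DMSO, 264, 253 and 252 CPM at 5 µM and 125, 149.7 and 158 CPM at 10 µM. The groups did not overlap, with log2 fold changes of -0.98 ± 0.09 and -1.81 ± 0.09 (edgeR adjusted p = 0.000141 and 7.41e-07), larger in size than that of any of the 49 genes. MTBP, a partner of the origin firing factor TICRR, fell at 10 µM (log2 change -0.86 ± 0.10, edgeR adjusted p = 0.000174), and DONSON, a helicase assembly factor, fell too, with -0.59 ± 0.07 (edgeR adjusted p = 0.000262). The 3 called higher at 10 µM were POLE4 (0.78), ORC5 (0.46) and ORC4 (0.36), which are named after their values were seen. Of 9 other genes of replication-coupled chromatin, 2 (22.2%) were downregulated at 5 µM and 5 (55.6%) at 10 µM, against 5.81% and 18.0% of all genes. None was called higher, and the median at 10 µM was -0.42. The histone chaperones NASP and ASF1B fell at 10 µM, with log2 fold changes of -0.61 ± 0.07 and -0.90 ± 0.12, and the CAF-1 subunit RBBP4 with -0.39 ± 0.07 (edgeR adjusted p = 0.000179, 0.000416 and 0.00197).

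Of 14 other nucleotide supply genes, 2 (14.3%) were downregulated and 1 (7.14%) upregulated at 5 µM, against 5.81% and 4.40% of all genes tested. At 10 µM it was 4 (28.6%) and 2 (14.3%), against 18.0% and 16.4% of all genes, and the median was -0.10. RRM2B, the small subunit of ribonucleotide reductase that p53 induces, stood at 62.9, 65.9 and 63.7 CPM in DMSO, 159, 150.04 and 152 CPM at 5 µM and 133, 188 and 198 CPM at 10 µM. It rose, with log2 fold changes of 1.26 ± 0.13 and 1.43 ± 0.13 (edgeR adjusted p = 0.000352 and 3.18e-05), while its paralog RRM2 fell. The groups of RRM2B against DMSO did not overlap at either dose, and replicate 1 was the lowest of its 10 µM libraries. DCK, deoxycytidine kinase, fell at 10 µM (log2 change -0.66 ± 0.09, edgeR adjusted p = 0.000557). Among 10 genes that control S-phase entry, 2 (20%) were downregulated and 1 (10%) upregulated at 5 µM, against the same shares of all genes. At 10 µM it was 5 (50%) and 1 (10%), against 18.0% and 16.4% of all genes, and the median was -0.50. CDKN1A, which encodes the CDK inhibitor p21, stood at 162, 157 and 154 CPM in DMSO, 537, 549 and 561 CPM at 5 µM and 899.7, 726 and 699.9 CPM at 10 µM. It was the one called higher, by 1.80 ± 0.10 and 2.30 ± 0.10 (edgeR adjusted p = 1.04e-05 and 3.12e-07). CCNA2, the S-phase cyclin A2, stood at 72.3, 70.8 and 74.1 CPM in DMSO, 51.5, 46.02 and 51.96 CPM at 5 µM and 29.2, 32.5 and 31.01 CPM at 10 µM and changed by -1.23 ± 0.08 at 10 µM (edgeR adjusted p = 3.84e-06). SKP2, which targets the CDK inhibitor p27 for degradation, fell at 10 µM (log2 change -0.86 ± 0.08, edgeR adjusted p = 3.28e-05).

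**Figure D5:**
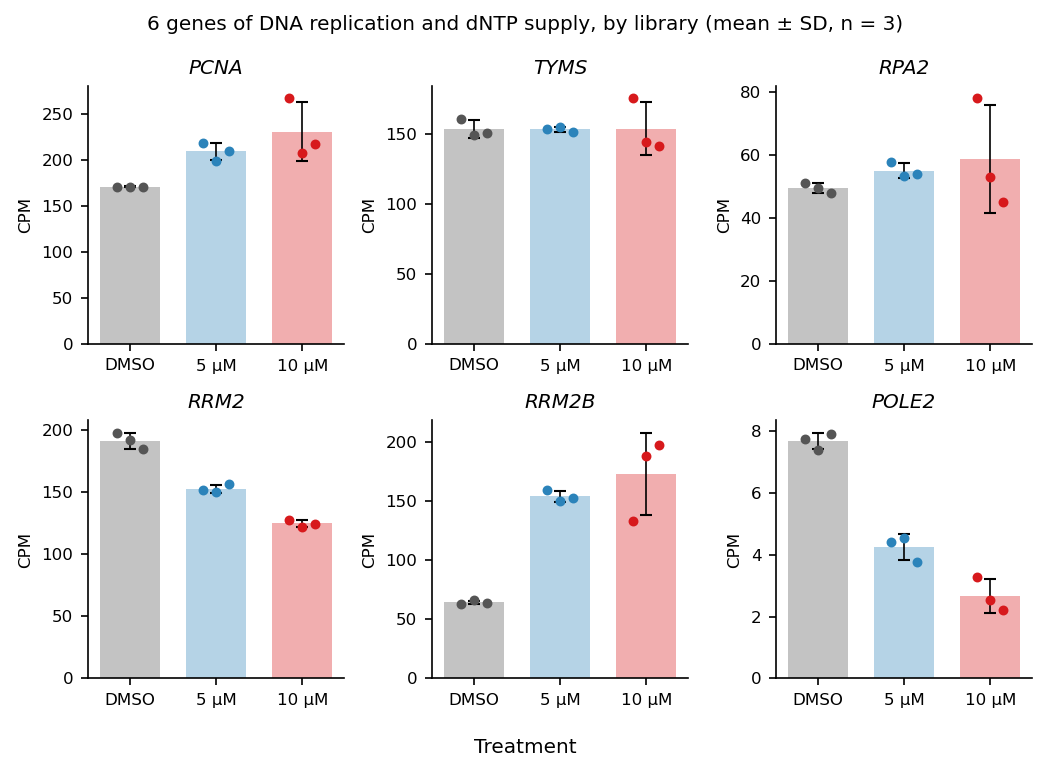
CPM of PCNA, TYMS, RPA2, RRM2, RRM2B and POLE2 (y axes, each from 0) in DMSO, 5 µM and 10 µM; points are libraries, bars are means and error bars are SD over 3 libraries. PCNA and RRM2B lie above DMSO in all 6 treated libraries, RRM2 and POLE2 lie below it, and the TYMS and RPA2 libraries at 10 µM overlap those in DMSO.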

How the data were processed

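Total RNA came from A375 cells after 24 h with DMSO or with TP-472 at 5 µM or at 10 µM, and each group had 3 libraries. Expected counts per gene symbol, not scaled to library size, were deposited by the authors in 1 table of 9 libraries, and no column belonged to other samples (0). The submitters' processing notes name Bowtie2 2.1.0, RSEM 1.2.15 and hg38, without their roles. The study's methods describe strand-specific libraries made with dUTP, but no source used here names the annotation or the strand setting of the counting. The labels describe mRNA purified on oligo-dT beads, and the series text describes depletion of ribosomal RNA, and which was used could not be settled.

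Expected counts (fractional in 10.6% to 13.8% of cases per library) were rounded to whole numbers. Genes were filtered with filterByExpr, scaled by TMM and tested in 1 fit of the 3 groups with edgeR 4.0.16 (quasi-likelihood F test, R 4.3.3), with p-values adjusted by Benjamini-Hochberg across all 16417 tested genes and a threshold of 0.05. The standard error was taken as |log2 fold change|/√F, and SD is over 3 libraries. The fit was tested on simulated counts with known changes placed in the 10 µM libraries. Tables and figures were made with Python 3.11.15, pandas 2.3.3, numpy 2.4.6 and matplotlib 3.10.9. Gene positions, exonic lengths and overlaps were read from the GRCh38 annotation of GENCODE (release 29) (all 49 genes matched), and promoters from RefSeq (43 matched).

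The members and lists were chosen with earlier results of these data known. Values in every library are given for members called at either dose with a fold of at least 1.5 and for the member with the smallest p of each of 10 roles, and values of other members, PCNA, TYMS and RPA2 among them, were added after they were seen. Of each of the other lists, the 3 genes with the smallest p at 10 µM are named. The result for 1 of them is left out. Promoters are printed for the 6 members with the largest called change at 10 µM and a motif, leaving out chromosome 8.

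Libraries with the same replicate number did not deviate together from their group means (correlations -0.049 to 0.032), so the numbers were not taken as pairs. Alternatives were DESeq2-type and upper-quartile scaling, 2 other filters, DESeq2 1.42.0, a replicate block, each library left out, fits of only the 2 groups compared, ribosomal RNA genes left out and a fold of at least 1.5 as well. Removal of a spline trend (4 degrees of freedom each) in length and GC was chosen after seeing the data.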

Additional observations from a re-analysis of the deposited data

How the results depend on the processing

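The 79 calls of single replication genes (23 at 5 µM, 37 at 10 µM and 19 between the doses) kept their direction in all alternatives run. The rule on fold uses the same log2 values and could not change a direction. It lost 43 of the 79 calls. Leaving out 1 DMSO or 5 µM library lost 25 to 29 of them, and leaving out 1 library at 10 µM lost 0 to 7. Of the 36 genes called lower at 10 µM, the 26 with a fold of at least 1.5 passed the test in every alternative, and GINS3, POLA2, RFC1, RFC2 and SLBP lost the call in some beside the rule on fold. The count called lower at 10 µM was 31 to 40 with 1 library left out and 36 with the replicate block. With a fold of at least 1.5 as well it was 26 (1730 of all genes). The share of all genes called lower there was 18.0%, and 12.6% to 25.8% with 1 library left out and 17.6% with the block. The count called higher at 10 µM was 1 to 2 with 1 library left out and 0 with that fold (1407 of all genes). The median at 10 µM was -0.60 with upper-quartile scaling, -0.59 with the length and GC trend removed and -0.65 to -0.60 with 1 library left out.

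At 5 µM the counts depended on which libraries set the spread. The calls of CHAF1B, POLD3 and RPA1 at that dose were each lost in 9 of the 19 alternatives. Those of CHAF1A, POLD1 and PRIM1 were each lost in 8. Members called lower at 5 µM were 23, and 40 with only the 2 groups compared. With a fold of at least 1.5 as well it was 6 (447 of all genes), and with 1 library left out 5 to 37. The fit of only DMSO and 5 µM called 3051 of all genes higher and 3280 lower, where the fit of 3 groups called 722 and 954. Members called higher were 0, and 1 with DESeq2, 2 with only the 2 groups compared, 1 with the length and GC trend removed and 0 to 1 with 1 library left out. The median was -0.31 to -0.28 with 1 library left out. Between the doses, members called lower were 19, and 4 with only the 2 groups compared. With a fold of at least 1.5 as well it was 4 (425 of all genes), and with 1 library left out 8 to 33. Members called higher were 0 to 1 and the median was -0.31 to -0.22 with 1 library left out. The fit of only the 2 dose groups called 114 of all genes higher and 221 lower, where the fit of 3 groups called 471 and 908. DESeq2 called 1080 and 1382.

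With the replicate block, 16 members were called lower at 5 µM and 13 between the doses, with 4.50% and 4.20% of all genes called lower, and 15 of the 79 calls were lost. The labels number the libraries without saying that a number marks a shared batch or day.

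Depth was not limiting, since each member held at least 108 expected counts in every library, and the precision was set by 3 libraries per group. The RNA preparation, the strand setting and the state of 10 µM replicate 1 could not be checked further.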
